A study of Mus musculus with 12 samples.

Results

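The hair bundle and mechanotransduction genes encode the proteins that build the stereocilia of inner ear hair cells and turn their deflection into a current. A list of 33 such genes was looked up by symbol in the deposited table, and 32 of them were found among the 22869 gene symbols measured. The symbol Dfnb31 has no row there, and the gene is described below under its newer symbol Whrn. Each gene is represented by its transcript row with the most reads over all embryos: 22 members have 1 row and 10 have several, 65 rows in all.

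The samples are cochlear epithelium of C57BL/6 mouse embryos at embryonic day 16.5, from 3 Esrp1+/+ embryos (control) and 3 Esrp1-/- embryos (knockout). ESRP1 binds RNA and controls alternative splicing in epithelia. The epithelium was freed of mesenchyme by hand dissection and collagenase, each sample pools the left and right cochlea of 1 embryo, and each embryo gave 2 libraries of polyA RNA that count as 1 replicate. The labels give neither the deleted exons, nor a conditional allele, nor the litters.

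In the auditory organ, hair cells carry on their apical surface a staircase of actin-filled stereocilia. Fine extracellular filaments, the tip links, join each stereocilium to its taller neighbour, and tension on them opens a channel complex at the tip of the shorter one. Crosslinkers, capping proteins and unconventional myosins set the length and width of the staircase, and mutations in many of these genes cause deafness, some of them Usher syndrome. At this age hair cells of the cochlea are still differentiating, so many bundle genes are only beginning to be transcribed.

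Depth was 12547301 to 21568516 reads on genes per embryo, lowest in knockout 1. Esrp1 itself had 197, 102 and 118 CPM (reads as parts of the library's total, after TMM scaling) in controls 1, 2 and 3, and 27.2, 34.3 and 39.1 CPM in knockouts 1, 2 and 3, so that every knockout embryo lay below every control embryo. The epithelial markers were present in all embryos, with Tecta at 1539 to 3668 CPM and Epcam at 269 to 536 CPM, and so were mesenchymal genes, with Col3a1 at 422 to 1132 CPM. Hair cell genes were present at lower levels, with the transcription factor genes Atoh1 at 9.18 to 19.5 CPM and Pou4f3 at 6.496 to 17.5 CPM. The embryos were of both sexes by their RNA: Ddx3y from the Y chromosome reached 94.97 and 81.9 CPM in knockouts 2 and 3, where Xist was at most 0.27 CPM, and was at most 0.91 CPM elsewhere, where Xist was at least 1098 CPM. Fos, an immediate early gene, reached 153 CPM in control 1 and was also raised in knockout 1 (64.6 CPM), where the 4 remaining embryos had 1.00 to 7.27 CPM. The 3 knockouts thus differ among themselves in sex-linked and immediate early genes.

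The 4 upstream sequences below show what stands before the starts of members that were lowest in knockout 3 and that hold a short motif of the factor families known in hair cells. They are the 250 bases before the annotated start, from RefSeq on GRCm38.p6, read 5′ to 3′ on the gene's strand, and the capitals mark the motif. They lie at chr5:68031585-68031834 (plus strand) for Grxcr1, chr1:91321825-91322074 (plus strand) for Espnl, chr3:58885213-58885462 (minus strand) for Clrn1 and chr11:60469089-60469338 (plus strand) for Myo15.
Grxcr1: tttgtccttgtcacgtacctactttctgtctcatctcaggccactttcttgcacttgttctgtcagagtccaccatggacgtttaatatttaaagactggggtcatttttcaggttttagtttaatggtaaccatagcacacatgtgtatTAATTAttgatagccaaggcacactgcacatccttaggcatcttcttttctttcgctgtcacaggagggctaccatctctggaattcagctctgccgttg
Espnl: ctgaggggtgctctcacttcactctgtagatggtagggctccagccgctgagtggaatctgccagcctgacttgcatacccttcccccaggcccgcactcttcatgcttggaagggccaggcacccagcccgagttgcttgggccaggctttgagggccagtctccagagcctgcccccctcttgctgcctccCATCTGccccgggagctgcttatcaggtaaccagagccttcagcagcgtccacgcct
Clrn1: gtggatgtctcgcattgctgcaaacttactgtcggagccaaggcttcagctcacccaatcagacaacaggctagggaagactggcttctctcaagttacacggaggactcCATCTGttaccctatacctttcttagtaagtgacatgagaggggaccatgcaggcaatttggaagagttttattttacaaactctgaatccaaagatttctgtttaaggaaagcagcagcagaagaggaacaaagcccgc
Myo15: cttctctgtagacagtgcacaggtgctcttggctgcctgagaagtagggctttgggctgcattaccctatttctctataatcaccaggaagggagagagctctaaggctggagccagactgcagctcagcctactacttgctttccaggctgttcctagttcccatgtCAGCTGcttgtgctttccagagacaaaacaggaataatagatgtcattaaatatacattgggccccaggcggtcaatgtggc
The motifs searched on both strands were the E-boxes CAGCTG and CAGATG (bound by factors of the ATOH1 type), the homeodomain core TAATTA and the RFX half-site GTTGCC. The promoter table holds 35 promoters of 26 of the 32 members and 32851 promoters in all. CAGCTG occurs in 6 of the 35 (17.1%, against 13.0% of all promoters), CAGATG in 3 (8.57%, against 14.4%), TAATTA in 3 (8.57%, against 4.84%) and GTTGCC in 1 (2.86%, against 10.4%). Lhfpl5 also holds CAGCTG, in a window that lies inside its annotated gene and is not printed. The printed sequences were chosen by both traits together. Fscn2, Xirp2, Myo3a, Cib2 and Tmc1 were also lowest in knockout 3 but hold none of the motifs. So were Grxcr2, Loxhd1, Ptprq and Ush1g, for which no promoter was searched. Espn, Rdx, Pls1, Tmie, Myo7a and Myo1c hold a motif but were not lowest in knockout 3. The motif hits are matches of letters and say nothing of binding.

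Per unit of transcript length, the members spanned 3 orders of magnitude, from radixin to the channel subunit gene Tmc2. The values below are FPKM, a read level per transcript length and library size, as the authors deposited them, mean ± SD of 3 embryos. Rdx, the gene of the actin-to-membrane linker radixin, had the highest mean over the 6 embryos, with 30.6 ± 4.52 FPKM in controls and 29.0 ± 5.06 in knockouts. Next came Pls1 (plastin, an actin bundler), Myo6, Cib2, Ush1c and Triobp, with means over all embryos of 12.7, 11.1, 10.5, 9.07 and 8.42 FPKM. These 6 genes are known from other epithelial cells as well as from hair cells. Some genes known best from hair cells were low: Tmc1 had 0.109 ± 0.0645 FPKM in controls and 0.0976 ± 0.109 in knockouts. Strc and Tmc2 were listed at 0 in controls 1 and 2. Others were higher, with control means of 3.04 FPKM for Grxcr1, 2.29 for Myo7a and 1.58 for Lhfpl5. Among the genes under 1 FPKM, the SD of the 3 knockouts exceeded that of the 3 controls for all except Myo3a and Ush1g.

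**Figure D1:**
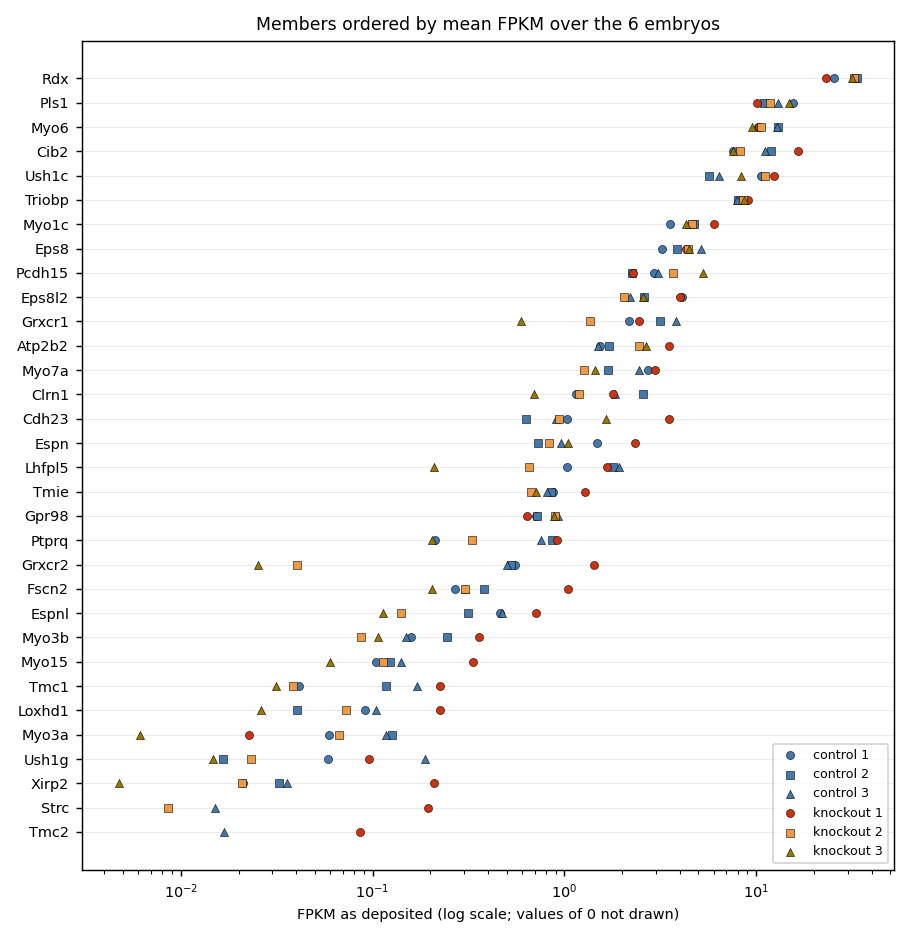
FPKM as deposited (log scale) of the 32 members, 1 point per embryo, ordered by the mean over 6 embryos. Rdx stands highest at 29.8 FPKM and the spread between embryos widens toward the low genes, where knockout 1 often lies to the right of the other embryos. Values of 0 are not drawn.

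No member passed edgeR's quasi-likelihood test of knockout against control over all genes. On simulated data this test recovered 51 of 100 changes of 2-fold, so a change of that size can be missed. The changes were planted in genes with a mean of at least 1 CPM, so recovery for members under that level was not measured. Of the 32 members, 29 had enough reads to be tested (all except Strc, Tmc2 and Ush1g), and 0 of them had an adjusted p under 0.05, where 22 of all 14717 genes tested did (0.149%). The unadjusted p was under 0.05 for 4 of the 29 (Atp2b2, Cdh23, Grxcr1 and Myo3a) and for 702 of the 14717. DESeq2 called 1 member, Atp2b2, among 166 of 15982 genes (1.04%). The median log2 fold change, knockout over control, was 0.03 over the members and 0.00 over all genes, with 15 members positive and 14 negative. The embryos of the groups did not overlap for Atp2b2, which was higher in every knockout (5.4% of all genes were so), and for Myo6, Grxcr1 and Myo3a, which were lower in every knockout (4.44% of all genes). With library size only in place of TMM scaling, the groups of Grxcr1 and Myo3a overlapped. In bulk tissue, fewer hair cells and less RNA per hair cell cannot be told apart.

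The knockout embryos differed among themselves. Knockout 1 had the highest level of the 6 embryos in 15 of the 29 members tested (51.7%), against 29.1% of all genes tested. Knockout 3 had the lowest level in 13 members (44.8%), against 11.8% of all genes, and knockout 2 the highest in 0, against 7.69% of all genes. Knockout 1 lay above both other knockouts in 21 of the 29 members (72.4%, against 41.9% of all genes). The median over members of the log2 level relative to the control mean was 0.48 in knockout 1, -0.33 in knockout 2 and -0.35 in knockout 3, where the controls ranged from -0.08 to 0.06 and all genes from -0.02 to 0.02. No test was made of these counts, which describe single embryos.

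**Figure D2:**
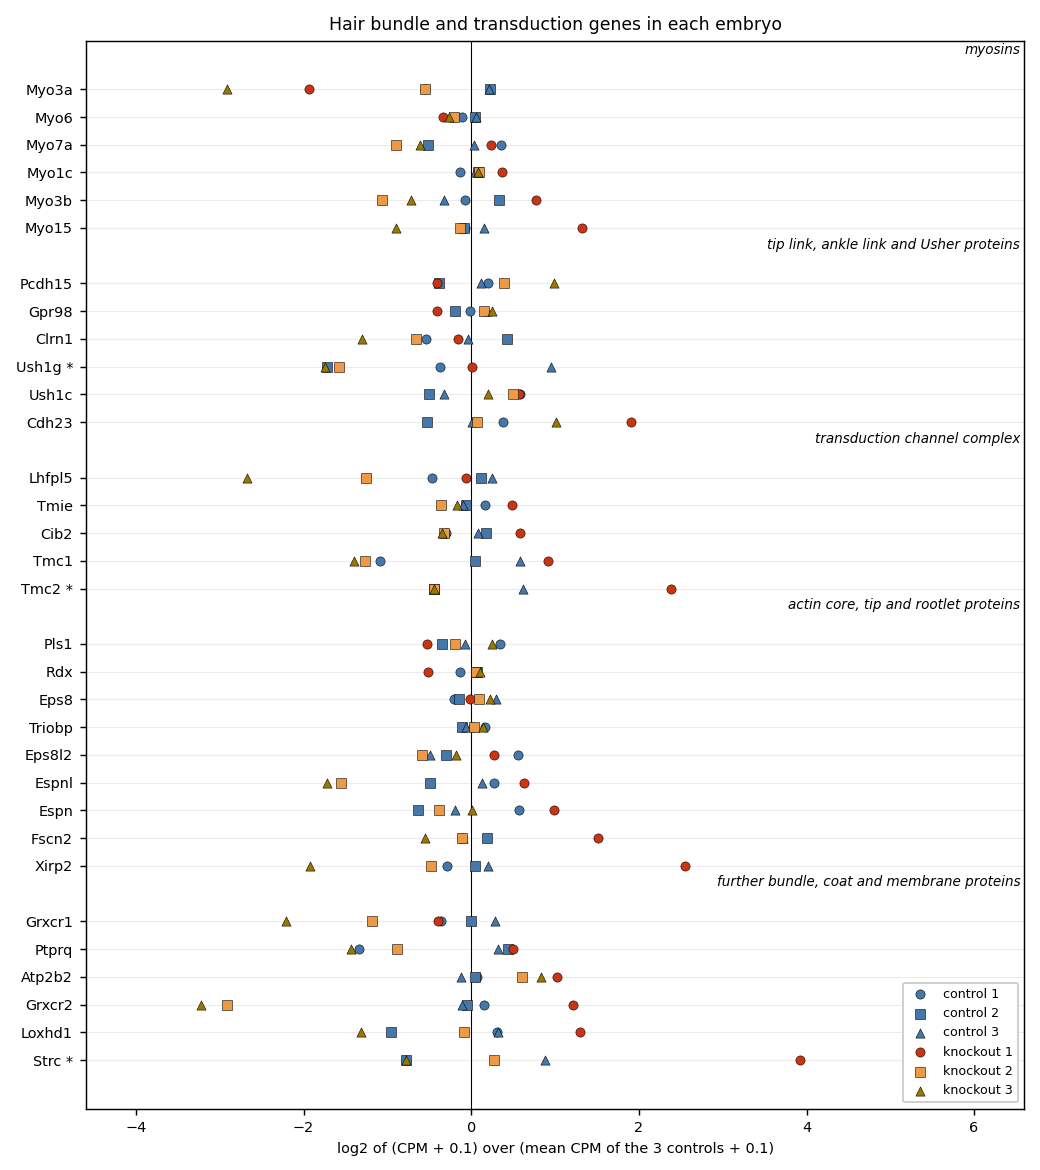
Level of each member in each embryo, as log2 of CPM plus 0.1 over the mean of the controls plus 0.1, by role. Knockout 1 (red circles) lies to the right of knockouts 2 and 3 (orange squares, brown triangles) in most rows, and an asterisk marks the 3 members with too few reads to test.

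Some markers of other cells were highest in knockout 1, but in most lists few were. Of the genes tested, 2 of 11 mesenchyme, 1 of 11 duct epithelium and 1 of 16 supporting cell genes were highest there. For spiral ganglion neuron, glia, skeletal muscle and immediate early genes the count was 0. Otop1 and Nox3, which vestibular organs use to make otoconia and which were singled out after their values were seen, had 9.22 and 4.57 CPM in knockout 1 and at most 0.11 CPM in each of the other embryos. Of the vestibular and otoconial list, 10 of 10 genes were found and 8 tested. Of these 8, 4 were highest in knockout 1 (50%, against 29.1% of all genes tested). The summed level was 3492 to 7176 CPM in controls, 10787 CPM in knockout 1, and 8559 and 11067 CPM in knockouts 2 and 3. Most of it was the otoconial matrix gene Oc90, which was above every control in each knockout, not in knockout 1 alone. Some hair cell genes also stood out there, again singled out afterwards: Otof, the synaptic calcium sensor otoferlin, had 29.8 CPM in knockout 1 against 1.13 to 6.90 in the others, and Gfi1 had 11.3 against 1.93 to 4.58. Of 24 hair cell transcription and identity genes tested, 10 were highest in knockout 1 (41.7%, against 29.1% of all genes tested). Atoh1 and Pou4f3 were not, at 10.2 and 11.9 CPM beside control ranges of 12.7 to 19.5 and 12.0 to 17.5. The summed hair cell list, led by Lmo7, Isl1, Rfx3 and Calb1, which other cells also express, was lowest in knockout 1, at 508 CPM against 545 to 692 in the others. The median over its genes of the log2 level relative to controls went the other way, at 0.23 in knockout 1, the highest of the 6 embryos, and -0.32 and -0.23 in knockouts 2 and 3. The supporting cell and prosensory list was lowest there too, at 1290 CPM against 1830 to 2425. The part of any of these in the high members of knockout 1 was not tested.

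Without knockout 1 the remaining knockouts lay apart from the controls in most members. The groups of 3 controls and 2 knockouts did not overlap in 17 of the 29: 15 were lower (9.19% of all genes were so) and 2, Atp2b2 and Pcdh15, higher (9.72% of all genes). The 15 were all 4 tested members of the transduction channel complex, 5 of 6 myosin genes, 3 actin genes (Espnl, Fscn2 and Xirp2), Grxcr1, Grxcr2 and Clrn1. Fscn2 was among them by a very narrow margin. The median log2 fold change was then -0.35, beside -0.00 over all genes. By edgeR's quasi-likelihood test 0 members had an adjusted p under 0.05, as did 7 of all genes (0.0476%), and 10 members and 725 genes had an unadjusted p under it. With control 1 left out as well, which takes out both embryos with high Fos, 4 members were called (Grxcr2, Ptprq, Atp2b2 and Ush1c), as were 1.07% of all genes. In both of these fits the controls have Xist and the knockouts have Ddx3y, so that sex and genotype cannot be told apart. With Xist as a covariate and all 6 embryos, a fit that leans on knockout 1, the members' median was 0.53 and that of all genes -0.00. By edgeR's quasi-likelihood test 0 members and 6 of all genes (0.0408%) were called in that fit, with 10 members and 3554 genes at an unadjusted p under 0.05.

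**Figure D3:**
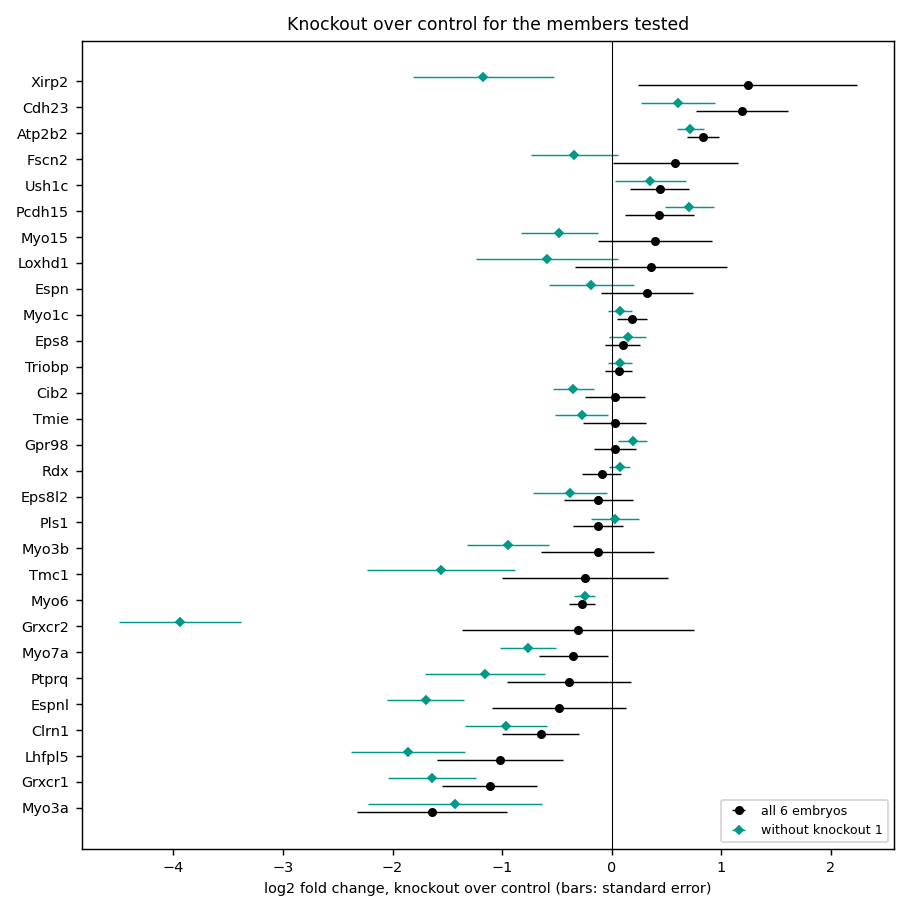
Log2 fold change of knockout over control for the 29 members tested, with standard errors, from all 6 embryos (black) and without knockout 1 (green). Of the members, 15 are positive with all embryos and 10 without knockout 1, and Grxcr2 moves furthest, from -0.31 to -3.94.

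Among the myosins, Myo6 had the tightest values. Myosin VI is the motor that holds the membrane down at the base of the stereocilia, and its gene had 196, 217 and 221 CPM in controls and 167, 183 and 175 CPM in knockouts. All knockouts were below all controls, by 0.27 on the log2 scale with an SE of 0.12 (adjusted p = 0.994 by edgeR's quasi-likelihood test), and the change without knockout 1 was -0.25 ± 0.10. Myo7a, the motor at the upper end of the tip link, had 53.3, 29.2 and 42.5 CPM in controls and 48.9, 22.2 and 27.2 in knockouts. Knockout 1 sat within the controls and the other knockouts below them. Myo15, which carries the elongation complex to stereocilia tips, had 3.01, 2.99 and 3.56 CPM in controls and 8.08, 2.90 and 1.67 in knockouts. Its level in knockout 1 was 2.54 times that of the controls by reads (95% interval 1.98 to 3.25, counting error only), and the 2 other knockouts were under every control. The class III myosins carry espins toward the tips. Myo3b had 2.44, 3.27 and 2.05 CPM in controls and 4.50, 1.18 and 1.53 in knockouts, again with knockout 1 above and the others below every control. Myo3a, the other of this class, did not share it: it had 12, 30 and 25 reads in controls and 3, 14 and 1 reads in knockouts. That is a log2 fold change of -1.64 ± 0.68 (adjusted p = 0.983, edgeR's quasi-likelihood test), with the groups only just apart (0.7521 CPM in control 1, 0.7516 in knockout 2). Myo1c, a motor implicated in adaptation and found in many cells, ranged from 45.9 to 65.4 CPM over the embryos, highest in knockout 1.

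The genes of the tip link cadherins differed in the place of knockout 1, highest of all embryos for Cdh23 and lowest for Pcdh15. Cdh23 (chromosome 10, 60302748 to 60696513), whose cadherin forms the upper part of the tip link, had 30.6, 16.3 and 23.7 CPM in controls and 88.4, 24.7 and 47.4 in knockouts. Knockout 1 was far above all others, knockout 3 above all controls, and knockout 2 within them. The log2 fold change was 1.19 ± 0.42 (adjusted p = 0.782, edgeR's quasi-likelihood test), and 0.61 ± 0.34 without knockout 1. The authors' deposited table gives the Cdh23 row a log2 fold change of 1.06 with an FDR of 0.0428. There, 222 of 28644 transcript rows have an FDR under 0.05 (0.775%), and of the members only the rows of Cdh23 and Atp2b2 do. Pcdh15 (chromosome 10, 73096277 to 74649831), whose protocadherin forms the lower part, had 65.1, 43.3 and 61.3 CPM in controls, 42.6 in knockout 1, and 74.4 and 112 in knockouts 2 and 3. Knockout 1 lay just under control 2, and knockout 3 was above knockout 2 for both cadherins.

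Ush1c encodes harmonin, the scaffold that anchors the upper tip link. It had 86.5, 40.6 and 46.2 CPM in controls and 86.1, 81.6 and 66.5 in knockouts. Control 1 was as high as the highest knockout, and without control 1 every knockout lay above both controls left. The log2 fold change was 0.44 ± 0.27 with all embryos, and 0.76 ± 0.13 without both embryos numbered 1 (adjusted p = 0.0420, edgeR's quasi-likelihood test). Harmonin is also made in other epithelia, and the duct epithelium list summed to 6632, 3589 and 4564 CPM in controls and 4488, 5672 and 7518 CPM in knockouts. Control 1 was the highest control in both, while among the knockouts Ush1c was lowest in knockout 3, where that sum was highest. The part of epithelial content in the Ush1c values was not tested. Gpr98 (Adgrv1), the giant receptor of the ankle links at the base of the bundle, ranged from 28.1 CPM in knockout 1 to 44.3 CPM in knockout 3, with the controls between. Whrn encodes whirlin, its scaffold partner at the ankle links and at the tips. It had 14.5, 8.62 and 12.0 CPM in controls and 13.1, 11.1 and 12.2 in knockouts, so the knockouts lay inside the control range. Clrn1, the gene of the membrane protein clarin, had 5.83, 11.5 and 8.30 CPM in controls and 7.62, 5.37 and 3.403 in knockouts, with knockouts 2 and 3 below all controls. Ush1g, the gene of the scaffold SANS, had 8, 3 and 26 reads in controls and 9, 3 and 2 in knockouts, too few for a test.

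In all 4 tested members of the transduction channel complex, knockout 1 was above knockouts 2 and 3, and knockouts 2 and 3 were below every control. The median of the log2 level relative to controls was 0.53 in knockout 1, -0.81 in knockout 2 and -0.88 in knockout 3. Of all genes tested, 41.9% had knockout 1 above knockouts 2 and 3, and 9.19% had knockouts 2 and 3 below every control. The margin was narrow for Cib2 (14.5 CPM in knockout 2, 14.8 in control 1). For Tmc1 those 2 embryos had 7 reads each. Lhfpl5 (chromosome 17, 28575369 to 28583593) encodes the subunit that couples the channel to the tip link. It had 3.13, 4.76 and 5.23 CPM in controls and 4.19, 1.77 and 0.601 in knockouts. Knockout 1 was within the controls, and knockout 3, with 9 reads, was the lowest. The log2 fold change was -1.02 ± 0.58 with all embryos and -1.86 ± 0.52 without knockout 1 (adjusted p = 0.570, edgeR's quasi-likelihood test). Tmc1, a pore subunit of the mature channel, had 7, 24 and 30 reads in controls and 27, 7 and 5 in knockouts. In CPM, knockout 1 (2.06) was the highest embryo and knockouts 2 and 3 (0.376 and 0.334) were the lowest. Tmc2, the pore subunit that precedes Tmc1 during development, had 0, 0 and 2 reads in controls and 8, 0 and 0 in knockouts. By reads, knockout 1 had 17.2 times the controls (95% interval 3.44 to 167), while a count of 0 still allows 0.161 CPM in knockout 2 and 0.200 in knockout 3. Tmie and Cib2, further parts of the complex, had narrower spreads. Tmie had 5.64, 4.81 and 4.69 CPM in controls and 7.09, 3.92 and 4.47 in knockouts. Cib2, whose calcium-binding protein attaches to the pore subunits, had 14.8, 20.6 and 19.4 CPM in controls and 27.4, 14.5 and 14.3 in knockouts. For both genes knockout 1 was the highest embryo. Exons of Tmie and Cib2 overlap those of Als2cl and Sh2d7 on the opposite strand, by 244 and 227 bases. Exons of Eps8l2, Strc, Triobp and Xirp2 likewise overlap an opposite-strand gene, and those of Myo3b a gene on the same strand. The library kit keeps strand, and whether the counting used it is not given.

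Of the actin core genes, Rdx, Pls1, Triobp and Eps8 had between 38.0 and 335 CPM in every embryo, and their log2 fold changes lay between -0.12 and 0.10. Knockout 1 was the lowest embryo for Rdx (217 CPM, against 283 to 335) and Pls1 (83.4, against 94.3 to 152). Knockout 1 was the highest embryo for Espnl, Fscn2, Espn and Xirp2. Espnl, which encodes an espin-like partner of the class III myosins, had 6.14, 3.58 and 5.55 CPM in controls and 7.93, 1.66 and 1.47 in knockouts. The knockouts other than 1 lay at or under 1.66 CPM, below every control. Fscn2, an actin crosslinker of mature stereocilia, had 18, 31 and 21 reads in controls and 48, 21 and 12 in knockouts. In CPM, knockout 2 (1.1274) lay only just under control 1 (1.1281). Espn, the main crosslinker espin, had 11.3, 4.81 and 6.57 CPM in controls and 15.0, 5.74 and 7.61 in knockouts. For Espn, knockouts 2 and 3 stood inside the control range, unlike Espnl. Eps8l2, a capping protein of the shorter rows, ranged from 13.7 CPM in knockout 2 to 30.6 in control 1.

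Xirp2 had the largest positive log2 fold change among the members tested. Its protein binds actin in stereocilia and also in striated muscle. It had 10, 18 and 17 reads in controls and 67, 10 and 2 in knockouts. Knockout 1 had 6.42 times the controls by reads (95% interval 4.34 to 9.59), and knockout 3 was the lowest embryo. The log2 fold change of 1.24 ± 1.00 became -1.18 ± 0.64 without knockout 1. Of the 11 skeletal muscle genes listed, 6 were tested and 0 of these were highest in knockout 1. The summed muscle list was 21.3 CPM there, against 12.7 to 25.0 in controls and 29.4 and 16.6 in knockouts 2 and 3.

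Of the coat and membrane genes, Atp2b2 was the only member whose knockouts all lay clearly above the controls. Atp2b2 (chromosome 6, 113743831 to 114042613, GRCm38.p6) encodes the plasma membrane calcium pump that clears calcium from stereocilia, and other inner ear epithelium and neurons use it as well. It had 28.7, 28.2 and 25.2 CPM in controls and 55.9, 41.6 and 49.0 in knockouts, means of 27.4 ± 1.88 and 48.8 ± 7.14 (SD, n = 3). The log2 fold change was 0.83 ± 0.15 (adjusted p = 0.123, edgeR's quasi-likelihood test), and 0.72 ± 0.12 without knockout 1. DESeq2 gave 0.82 (adjusted p = 0.0011), and the authors' deposited table gives the 2 rows of this gene 0.73 each with FDRs of 0.0421 and 0.0452. The call thus depends on the test, while leaving out any 1 embryo moved the log2 fold change only between 0.72 and 0.94.

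Grxcr1 and Grxcr2 encode glutaredoxin-domain proteins that shape the width and order of stereocilia. Grxcr1 (chromosome 5, 68031835 to 68166398) had 5.58, 7.17 and 8.78 CPM in controls and 5.41, 3.11 and 1.47 in knockouts. All knockouts were below all controls, knockout 1 only narrowly, and the groups overlapped with library size only in place of TMM scaling. The log2 fold change was -1.12 ± 0.43 (adjusted p = 0.899, edgeR's quasi-likelihood test). Grxcr2 had 26, 31 and 25 reads in controls and 46, 2 and 1 in knockouts. Its 3 controls were nearly equal (1.35 to 1.63 CPM), knockout 1 was above them at 3.51 CPM, and knockouts 2 and 3 were at 0.107 and 0.0667 CPM, under the level of 3 reads. The log2 fold change was -0.31 ± 1.06 with all embryos and -3.94 ± 0.56 without knockout 1 (adjusted p = 0.111, edgeR's quasi-likelihood test), the latter resting on 3 reads in the knockouts. Without knockout 1 it was the lowest log2 fold change of the 29 members tested.

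Ptprq encodes the phosphatase of the shaft connectors. It had 4.01, 14.0 and 12.8 CPM in controls and 14.5, 5.53 and 3.74 in knockouts. Here control 1 joined knockouts 2 and 3 at the low end, and without both embryos numbered 1 the log2 fold change was -1.53 ± 0.24 (adjusted p = 0.0348, edgeR's quasi-likelihood test). Control 1 was also the embryo lowest in the summed spiral ganglion neuron list, at 275 CPM against 778 to 1284 in the others, and its part in the Ptprq value was not tested. Loxhd1, needed for the function of mature hair cells, had 23, 12 and 27 reads in controls and 39, 20 and 6 in knockouts. Strc encodes stereocilin, which joins stereocilia tops to each other and to the tectorial membrane. It had 0, 0 and 4 reads in controls and 33, 2 and 0 in knockouts. Knockout 1 had 35.6 times the reads of the controls after scaling (95% interval 12.7 to 138), and the zero in knockout 3 allows up to 0.200 CPM.

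**Figure D4:**
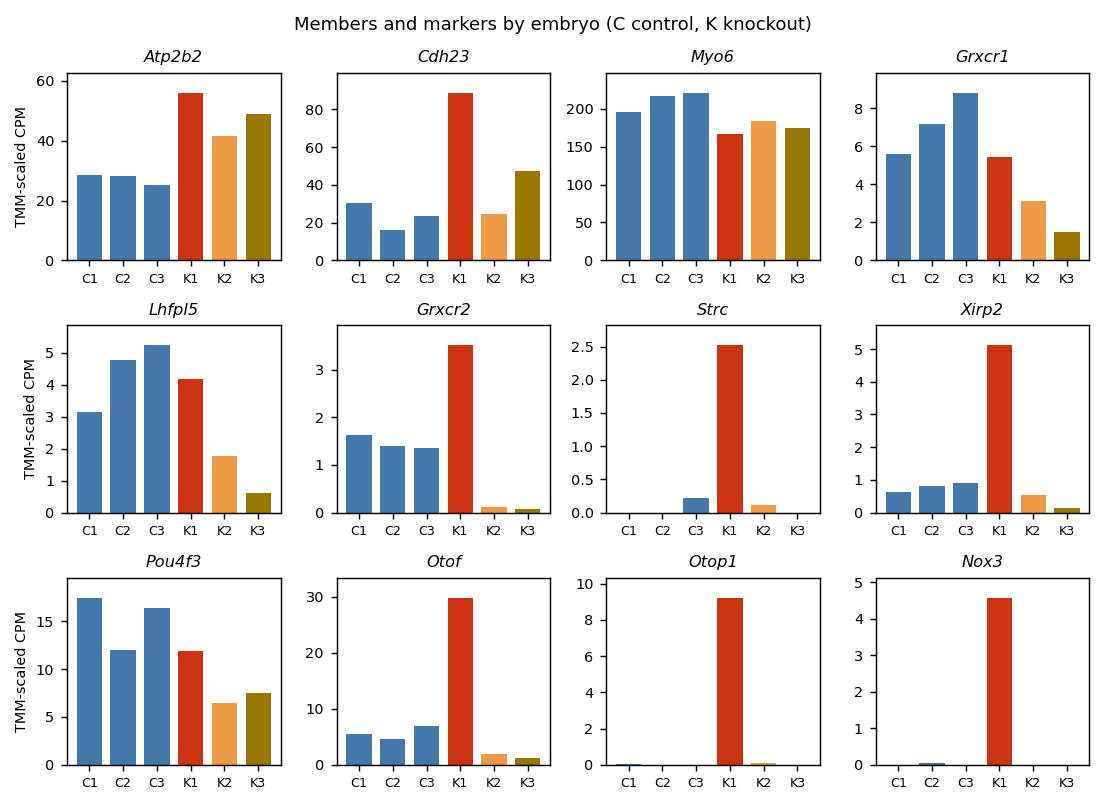
TMM-scaled CPM in each embryo (C control, K knockout) of 8 members and of the markers Pou4f3, Otof, Otop1 and Nox3. Atp2b2 is above the controls in each knockout, Grxcr2, Strc and Xirp2 are high in knockout 1 alone, and Otop1 and Nox3 are at 9.22 and 4.57 CPM there and near 0 in the other embryos.

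A list of other genes of the bundle and its apical surface gave values near those of all genes. Of 39 further symbols of the bundle and its apical surface, Whrn among them, 36 were found and 31 tested, with 0 called in either direction by edgeR's quasi-likelihood test and 1 by DESeq2. Their median log2 fold change was -0.01, 14 were positive and 17 negative, and the median level in each embryo lay between -0.04 and 0.01 relative to controls. Knockout 1 was the highest embryo in 9 of the 31 (29.0%), as in 29.1% of all genes. Many of these genes are not particular to the bundle, and Otog and Otoa also stand in the duct epithelium list. The 4 with the most reads were Otog, Myh9, Gnai3 and Fscn1, with Otog and Myh9 at 366 to 904 CPM. A few with low levels resembled the members, such as Tomt, an enzyme gene needed to bring TMC proteins to the bundle (2.36 CPM in knockout 1 against at most 0.501 in the others), which was singled out after its value was seen.

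Since ESRP1 acts on splicing, the shares of transcript rows were compared within genes. For each pair, the share is the excess of the main row's reads over the further row's, in percent of the main row; it is a net value. Members supplied 20 of the 1774 pairs tested, in 5 genes (Espn, Pcdh15, Rdx, Triobp and Ush1c), and some pairs of a gene hold the same reads. By limma with adjustment over all pairs, 0 of 20 were called, as were 0.0% of all pairs, and the smallest member adjusted p was 0.921. The unadjusted p was under 0.05 for 0 of the 20 and for 92 of the 1774.

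Ush1c had the lowest log2 odds among the member pairs. Its main row has 27 exons and the further row NM_023649 has 21. The main row alone holds 1091 exonic bases, the longest segment of 483 bases at chr7:46208850-46209332 (GRCm38.p6). The further row alone holds 371 exonic bases, so the net share cannot be assigned to a single segment. The share outside the further row was 21.5%, 19.4% and 19.9% in controls and 9.91%, 19.4% and 11.7% in knockouts. Knockouts 1 and 3 were clearly lower, and knockout 2 equalled control 2 to the first decimal. The log2 odds differed by -0.74 ± 0.30 (SE, adjusted p = 0.921, limma). Exons of Ush1c overlap the opposite-strand model Gm9860 by 120 bases. The highest log2 odds were those of Espn against the short row NM_019585: 31.7%, 28.3% and 24.6% in controls and 36.0%, 45.8% and 31.6% in knockouts (0.62 ± 0.27, adjusted p = 0.922, limma), with control 1 and knockout 3 side by side. For Triobp, whose long and short forms build the rootlet, the share outside NM_001039155 was 70.5% to 72.3% in controls and 72.6% to 75.8% in knockouts, apart by a narrow margin. Pcdh15 and Rdx overlapped between groups in each of their pairs.

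**Figure D5:**
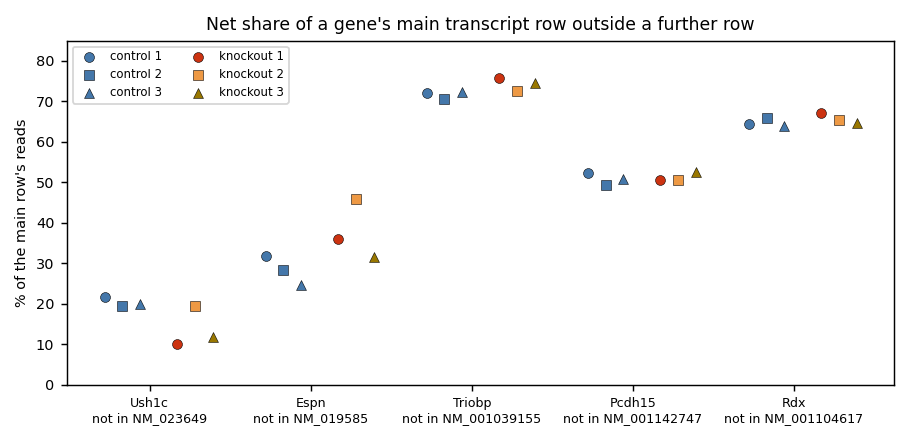
Net share of the main row's reads that lie outside 1 further row (percent), 1 point per embryo, for a pair of rows of each of the 5 member genes tested. Ush1c is lowest in knockouts 1 and 3 at 9.91% and 11.7%, Espn is highest in knockout 2 at 45.8%, and Pcdh15 and Rdx lie level across the embryos.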

How the data were processed

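The table analysed is 1 file over all embryos. Its read counts, 1 column per embryo and 1 row per RefSeq transcript, are raw as deposited, per the file headers. Its FPKM values were made by the authors per embryo, scaled by transcript length and library size per the file headers. Log2 fold changes, p-values and FDR stand in the authors' deposited table for each transcript row, made with edgeR per the file headers. Per the submitters' processing notes the build is mm10, the name of GRCm38 at UCSC. Which aligner and counter made the reads per transcript is not given in the sources used here. Another 15 columns were left unused.

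Counts of the row with the most reads per gene were filtered with filterByExpr (minimum count 10), scaled by TMM and tested by edgeR 4.0.16 (R 4.3.3) with its quasi-likelihood test, Benjamini-Hochberg adjustment and a threshold of 0.05. DESeq2 1.42.0 was the alternative, and limma 3.58.1 tested row shares (offset 0.5, at least 60 difference reads). Levels are TMM-scaled CPM. Intervals for ratios of reads are exact 95% binomial intervals, and a count of 0 allows 3 reads; both cover counting error only. The edgeR test and the limma row share test were tested on simulated data. There the edgeR test recovered 51 of 100 changes of 2-fold and 91 of 100 changes of 4-fold, with 13 false calls over 14717 genes. The changes were planted only in genes with a mean of at least 1 CPM. The alternatives were other scalings, no count filter, the replicate number as a block, each embryo left out, both embryos numbered 1 left out, Xist as a covariate and all transcript rows.

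The text names every member listed, Esrp1, Xist, Ddx3y and Fos, and at most the 4 genes with the most reads of each marker list, as the rule for named genes asks. Atoh1, Pou4f3, Gfi1, Otof, Otop1, Nox3, Tomt and Whrn were named beyond it, after their values were seen. The members and lists were chosen with earlier results of these data known. Of the marker lists, hair cell (24 genes tested), supporting cell (16), vestibular (8), spiral ganglion neuron (12), glia (8), mesenchyme (11), duct epithelium (11), skeletal muscle (6), immediate early (8) and other bundle genes (31), each had 0 genes past edgeR's threshold. DESeq2 called 2 genes of the hair cell list, 3 vestibular, 1 duct epithelium and 1 other bundle gene. Their median log2 fold changes were 0.09, -0.18, 0.38, -0.08, -0.19, 0.10, 0.29, -0.00, -1.15 and -0.01 in the same order.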

Additional observations from a re-analysis of the deposited data

How the results depend on the processing

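Of 406 log2 fold changes of single members under the alternatives, 48 turned sign, in 20 of the 29 members. The other 9 members kept theirs. The whole-table count of 22 genes was 166 with DESeq2, 157 without both embryos numbered 1, 6 with Xist as a covariate, and 0 to 31 with 1 embryo left out (0 without control 3 and 0 without knockout 2). With the replicate block it was 6, members called stayed at 0, and Tmie and Cib2 turned to -0.0103 and -0.0245. Same-numbered embryos correlated at 0.0768, 0.177 and 0.0288 in their deviations, and control 1 correlated best with knockout 3 (0.105), so the numbers were not taken as pairs. Members called were 1 with DESeq2 and 4 without both embryos numbered 1. Members with separated groups, 4 of 29 with all embryos (13.8%, all genes 9.84%), were 2 with library size only (6.90%, all genes 9.76%), 21 without both embryos numbered 1 (72.4%, all genes 43.5%), 9 without control 1 (31.0%, all genes 27.5%) and 17 without knockout 1 (58.6%, all genes 18.9%). With any other single embryo left out they were 5 (17.2%, all genes 14.8% to 18.9%). The median of 0.03 was 0.53 with Xist as a covariate. Without both embryos numbered 1, log2 fold changes turned sign in Myo15 (-0.51), Tmie (-0.19), Cib2 (-0.48), Fscn2 (-0.40), Pls1 (0.23), Rdx (0.0071), Eps8l2 (0.0083), Loxhd1 (-0.38) and Xirp2 (-1.29). With Xist as a covariate they did in Myo7a (0.31), Myo3b (0.86), Pcdh15 (-0.46), Gpr98 (-0.43), Tmc1 (1.10), Lhfpl5 (0.0317), Espnl (0.79), Grxcr2 (1.53), Ptprq (0.56), Eps8 (-0.0209) and Eps8l2 (0.32). With 1 embryo left out, the lowest and highest values of the members that turned sign were -0.48 and 0.77 for Myo15, -0.95 and 0.21 for Myo3b, -0.10 and 0.19 for Gpr98, -1.56 and 0.20 for Tmc1, -0.28 and 0.19 for Tmie, -0.35 and 0.19 for Cib2, -0.18 and 0.72 for Espn, -0.34 and 0.93 for Fscn2, -0.35 and 0.0818 for Pls1, -3.94 and 0.27 for Grxcr2, -0.21 and 0.0710 for Rdx, -0.38 and 0.27 for Eps8l2, -0.59 and 0.80 for Loxhd1, and -1.18 and 1.79 for Xirp2. Without knockout 1, 9 members turned sign. The row share count stayed at 0 under each alternative run. The causes of these changes were not tested. Members with under 100 reads over 6 embryos are limited by depth.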
